A study of Homo sapiens with 4 samples.

Results

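Receptors for biogenic amines, adenosine and lipid mediators were examined in BE(2)C cells after siRNA against SSRP1. The group held the genes whose symbol in the platform annotation belongs to the adrenergic, dopamine, histamine, trace amine, adenosine, lysophosphatidic acid, sphingosine 1-phosphate, prostanoid, leukotriene, free fatty acid or hydroxycarboxylic acid receptor families. ADRA2A and HRH3 were left out of it. In all, 48 of the 14812 genes measured were members, 21 with amine ligands, 24 with lipid or acid ligands and 3 with adenosine as ligand. Serotonin, muscarinic and P2Y receptor genes are not analysed here, so the purinergic members are the adenosine receptors.

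BE(2)C is an established human neuroblastoma line with noradrenergic features. Cells given SSRP1 siRNA made up 2 samples, and cells given a control siRNA with no target made up the other 2. Both groups were grown in DMEM with 10% fetal calf serum and transfected with Lipofectamine. RNA was taken 72 hours later, and each sample was hybridised to 1 Affymetrix Human Gene 2.0 ST array. The labels list 1 catalogue number for the SSRP1 siRNA, so SSRP1 depletion and other effects of that reagent cannot be told apart. They do not say whether replicates were separate cultures, and the p-values therefore cover just the spread between the samples at hand, which could be technical.

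G protein-coupled receptors of this kind cross the membrane with a bundle of helices and pass a signal to heterotrimeric G proteins. Gs raises cyclic AMP, Gi lowers it, Gq activates phospholipase C and calcium release, and G12/13 acts on the cytoskeleton. Sympathetic neurons and the neuroblasts related to them make noradrenaline and carry amine receptors that sense it. Serum contains lysophosphatidic acid and sphingosine 1-phosphate, whose receptors govern cell shape, migration and survival. Cysteinyl leukotrienes are made from arachidonic acid and are best known in asthma.

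SSRP1, the siRNA target and a subunit of the histone chaperone FACT, had log2 values of 7.42 and 6.97 on the SSRP1 siRNA arrays, against 9.05 and 9.23 on the control siRNA arrays. Its log2 change was -1.95 ± 0.17 (SE, limma adjusted p = 0.0479), so the labels and the target agreed in direction. With any 1 array left out its adjusted p lay between 0.241 and 0.599. The median value over all probe sets lay between 3.37 and 3.42 on the 4 arrays. Of 14 noradrenergic neuroblast markers 11 were measured, and all 11 lay in the top 25% of all genes, among them PHOX2A, HAND2 and DBH. Their summed linear values were 6215 and 6276 on the SSRP1 siRNA arrays, against 6798 and 6884 on the control siRNA arrays. Of the 11, 9 had a change below 0, with a median of -0.18, where 48.3% of all genes were above 0. At an unadjusted limma p under 0.05, 3 were lower and 1 higher, against 6.03% and 6.56% of all genes. DBH and TH, among the lower genes, are counted again with the amine genes below. The part of this marker difference in the receptor results was not tested. Of 10 macrophage and granulocyte markers 6 were measured, and their summed linear values were 118 and 112 on the SSRP1 siRNA arrays, against 133 and 117 on the control siRNA arrays. The mast cell and platelet sums, over 6 measured of 9, were 104 and 114 on the SSRP1 siRNA arrays, against 100.4 and 117 on the control siRNA arrays. The lymphocyte sums, over 3 measured of 8, were 56.3 and 60.1 on the SSRP1 siRNA arrays, against 62.6 and 61.5 on the control siRNA arrays. The endothelial sums, over 4 measured of 7, were 45.2 and 41.6 on the SSRP1 siRNA arrays, against 41.4 and 50.2 on the control siRNA arrays. In the bottom 25% of all genes lay 2 of the 6 macrophage and granulocyte, 3 of the 6 mast cell and platelet and 2 of the 4 endothelial markers. CD68, PF4, TPSAB1 and CD8A lay above the median of all genes. No marker of these blood cell and endothelial lists lay in the top 25%.

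CYSLTR2, one of the receptors for cysteinyl leukotrienes, was the member that differed most. It was lower with SSRP1 siRNA by 1.78 on the log2 scale, and the change of no other member exceeded 0.63 in size. LPAR1, a lysophosphatidic acid receptor, and ADRB1, the beta-1 adrenergic receptor, were lower by 0.43 and 0.28. ADORA1, the adenosine A1 receptor, and S1PR1, a sphingosine 1-phosphate receptor, were higher by 0.56 and 0.63. None of the 48 genes passed limma's test at an adjusted p under 0.05, where 0.0945% of all genes did, and these 5 genes had an unadjusted p under 0.05. That count fell without SSRP1 siRNA replicate 2, a fit that leaves 1 array in that group. The 5 genes made 10.4% of the members, against 12.6% of all genes, a share near that background.

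The 250 bases before the annotated start of 4 of these 5 genes are shown because they differ in base composition, with motif matches in capitals. They run 5′ to 3′ in the direction of transcription and come from RefSeq on GRCh38.p14, whose table matched 35 of the 48 members. LPAR1 has 6 listed starts, and which of them the array measures was not examined, so none is printed for it.
CYSLTR2 chr13:48653679-48653928 plus strand: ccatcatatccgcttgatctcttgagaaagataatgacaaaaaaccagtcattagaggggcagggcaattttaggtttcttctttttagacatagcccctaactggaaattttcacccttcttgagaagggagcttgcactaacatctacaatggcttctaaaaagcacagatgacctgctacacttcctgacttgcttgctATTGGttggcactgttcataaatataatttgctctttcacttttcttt
ADRB1 chr10:114043616-114043865 plus strand: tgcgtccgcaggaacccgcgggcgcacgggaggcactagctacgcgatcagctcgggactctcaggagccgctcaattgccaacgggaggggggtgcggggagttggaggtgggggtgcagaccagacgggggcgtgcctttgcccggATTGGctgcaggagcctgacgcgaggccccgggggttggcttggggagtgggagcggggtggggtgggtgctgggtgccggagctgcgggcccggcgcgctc
ADORA1 chr1:203127476-203127725 plus strand: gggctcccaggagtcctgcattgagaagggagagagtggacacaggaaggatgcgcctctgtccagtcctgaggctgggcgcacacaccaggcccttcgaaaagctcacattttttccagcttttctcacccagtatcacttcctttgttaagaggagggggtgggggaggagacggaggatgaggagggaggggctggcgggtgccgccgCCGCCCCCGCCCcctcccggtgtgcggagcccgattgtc
S1PR1 chr1:101236769-101237018 plus strand: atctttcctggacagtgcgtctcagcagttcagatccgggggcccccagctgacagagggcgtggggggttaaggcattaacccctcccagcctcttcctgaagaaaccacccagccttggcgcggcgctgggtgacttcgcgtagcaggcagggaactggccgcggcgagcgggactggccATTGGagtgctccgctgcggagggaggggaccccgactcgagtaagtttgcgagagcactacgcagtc

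Of the 4 windows, that of CYSLTR2 was lowest in G and C and in CpG, the difference for which they are shown. The CYSLTR2 window was 39.2% G and C with 1 CpG. ADRB1 had 72.8% and 24 CpG, ADORA1 63.2% and 12 CpG, and S1PR1 64.4% and 18 CpG. FFAR2 (38.8%, 1 CpG) and TAAR1 (40.4%, 1 CpG), with no unadjusted p under 0.05 in the main fit, had windows like that of CYSLTR2. Among the 30 members with 1 listed start, the median was 62.2% G and C and 12.5 CpG. Of those 30 windows, 6 had at most 1 CpG, which is 20%, against 14.7% of all 35116 windows in the table, which include genes with several starts. The motifs searched on both strands were the E-box CACGTG, the GC box GGGCGG, the CCAAT box CCAAT, the TATA box TATAAA and the cAMP response element TGACGTCA. A CCAAT box match stood in the CYSLTR2, ADRB1 and S1PR1 windows, read as ATTGG on the printed strand, and 32.0% of all windows hold one. ADORA1 had 2 adjacent GC box matches, read as CCGCCC, a motif found in 42.6% of windows. The E-box (6.34% of windows), the TATA box (10.7%) and the cAMP response element (1.65%) had no match in these 4 windows. A match is a description of letters and not of binding.

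CYSLTR2 (gene ID 57105, probe set 16774724) encodes the second of the cysteinyl leukotriene receptors, which signals mainly through Gq. Its log2 values were 3.15 and 2.93 on the SSRP1 siRNA arrays, against 4.61 and 5.04 on the control siRNA arrays. Both SSRP1 siRNA arrays lay well below both control siRNA arrays, and the gap between the groups was wider than the spread within either. The means were 3.04 ± 0.15 with SSRP1 siRNA and 4.83 ± 0.31 with control siRNA (SD, n = 2 each). The log2 change was -1.78 ± 0.17 (SE), which corresponds to 29.0% of the control value with a 95% interval of 21.6 to 39.0%. The SSRP1 siRNA values lay close to 3.02, below which the bottom 25% of all genes fall, and no detection values were used, so a value there can reflect background and this percentage may be compressed. It was the second largest decrease of the 14812 genes, after SSRP1 itself. The limma adjusted p was 0.0538 and the rank by p was 15, directly after the 14 genes that passed the test. The adjusted p was 0.0334 after quantile normalization, 0.0445 after median centring and 0.00744 with a variance trend. It was 0.0564 with robust variances and 0.174 over all probe sets, and it lay between 0.360 and 0.599 with any 1 array left out. In bulk RNA, fewer cells with the transcript and less transcript per cell cannot be told apart.

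**Figure D1:**
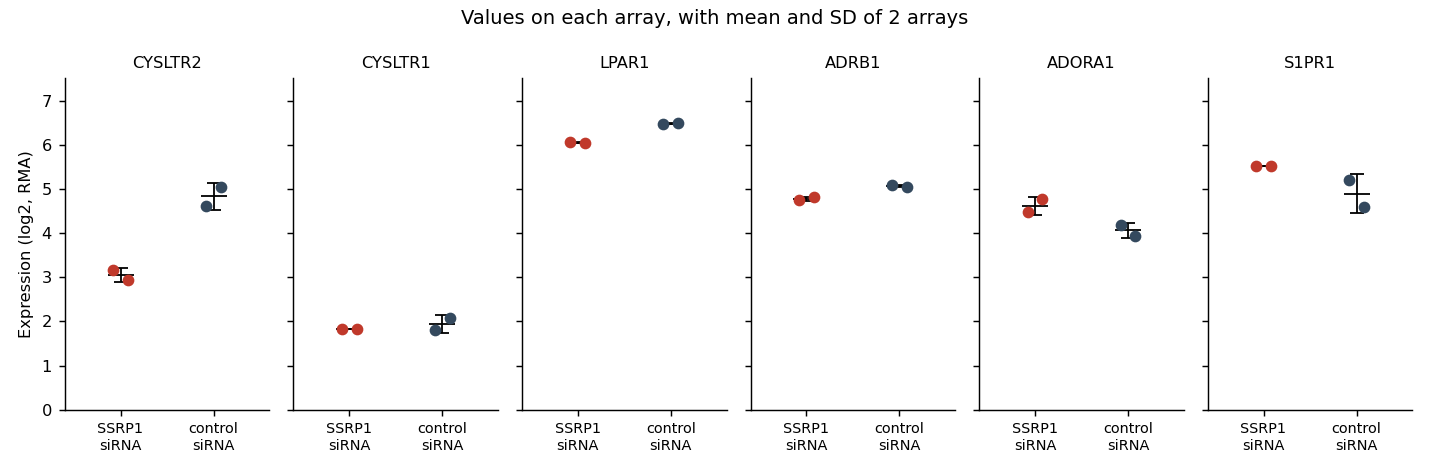
Log2 expression of 6 receptor genes on each array, SSRP1 siRNA left and control siRNA right in each panel. Points are single arrays and bars give the mean and SD of 2 arrays; CYSLTR2 shows the widest gap (3.15 and 2.93, against 4.61 and 5.04), and CYSLTR1 stays near 2 in both groups.

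The other cysteinyl leukotriene receptor gene, CYSLTR1, also couples to Gq and is the target of montelukast. It was dim on all arrays, at 1.84 and 1.83 with SSRP1 siRNA, against 1.80 and 2.08 with control siRNA, and the groups overlapped. Its log2 change was -0.11 ± 0.13 (SE, limma adjusted p = 0.785). Changes from such dim values are compressed, so a difference in CYSLTR1 may not have been detectable here. LTB4R, the receptor for leukotriene B4, which draws neutrophils, had 3.73 and 3.34 with SSRP1 siRNA, against 3.27 and 3.20 with control siRNA. The SSRP1 siRNA arrays were both higher, but the change of 0.30 ± 0.15 (SE) had an adjusted p of 0.488, and leaving out SSRP1 siRNA replicate 1 gave 0.11, against 0.49 when replicate 2 was left out.

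The measured genes beside CYSLTR2 on chromosome 13 were set next to it, a comparison chosen after its value was seen. On one side lie LPAR6, RCBTB2 and LINC00462, with log2 changes of 0.28, 0.34 and 0.21, all higher with SSRP1 siRNA on both arrays. On the other side lie FNDC3A, MLNR and CDADC1, with changes of -0.05, -0.05 and -0.45. None of these 6 passed the test (adjusted p between 0.324 and 0.945). RCBTB2, which was higher, and CDADC1, which was lower on both SSRP1 siRNA arrays, had unadjusted p of 0.0203 and 0.0398 from limma. An unadjusted p under 0.05 was seen for 12.6% of all genes. Both SSRP1 siRNA arrays lay above both control siRNA arrays for 21.8% of all genes and below them for 22.5%.

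**Figure D2:**
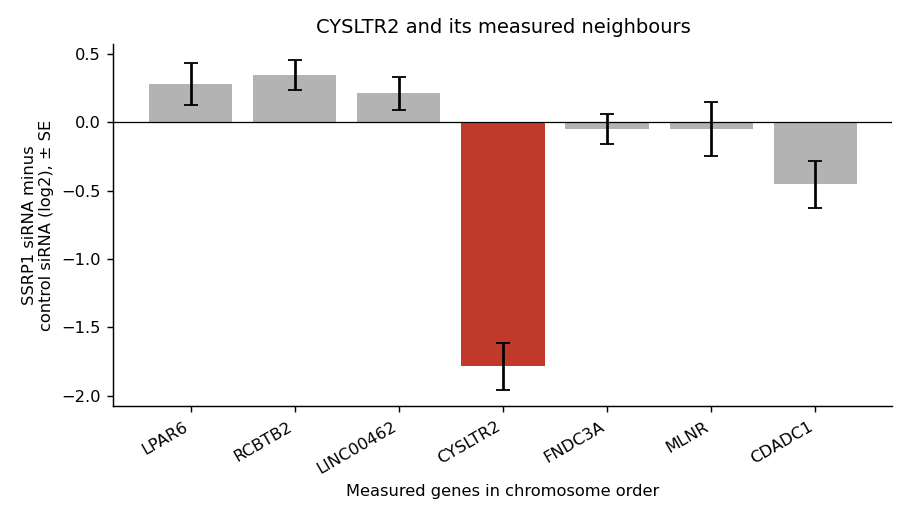
Log2 change, SSRP1 siRNA minus control siRNA, of CYSLTR2 and the 3 nearest measured genes on each side, in chromosome order. Bars give the change and lines the SE; CYSLTR2 is at -1.78, and its neighbours lie between -0.45 and 0.34.

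Among the lysophosphatidic acid receptors, LPAR1 was lower and LPAR3 had a change near 0. LPAR1 (gene ID 1902, probe set 17097132), which couples to several G proteins and is the founding receptor of its family, had 6.05 and 6.04 with SSRP1 siRNA, against 6.47 and 6.49 with control siRNA. The arrays within each group were almost identical and the groups did not overlap. The log2 change was -0.43 ± 0.10 (SE), or 74.0% of the control value (95% interval 62.6 to 87.4%), with an unadjusted p of 0.00463 and a limma adjusted p of 0.210. A second probe set for LPAR1, with lower values, had a change of -0.09, and the mean of both had a change of -0.26. LPAR3, a receptor with a role in embryo implantation in the mouse, had 6.26 and 6.44 with SSRP1 siRNA, against 6.43 and 6.26 with control siRNA, a change of 0.001 ± 0.12 (SE). LPAR4 and LPAR6, which signal through G12/13, were dim, with changes of 0.16 and 0.28 and adjusted p of 0.730 and 0.523.

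The sphingosine 1-phosphate receptors had no common direction of change. S1PR1 (gene ID 1901, probe set 16667760), the Gi-coupled receptor that lets lymphocytes leave lymph nodes, had 5.52 on both SSRP1 siRNA arrays, against 5.21 and 4.58 on the control siRNA arrays. The groups did not overlap, but the control arrays differed from each other by as much as the groups did. The log2 change was 0.63 ± 0.21 (SE), or 154% of the control value (95% interval 108 to 221%), with an unadjusted p of 0.0250 and a limma adjusted p of 0.341. Without control siRNA replicate 2 the change was 0.31, and without control siRNA replicate 1 it was 0.94. S1PR2, which acts through G12/13 and restrains migration, had 6.24 and 6.31 with SSRP1 siRNA, against 6.54 and 6.33 with control siRNA. The gap between its groups was small (change -0.16 ± 0.12, SE, adjusted p = 0.643), and it was -0.05 without control siRNA replicate 1 and -0.26 without control siRNA replicate 2. S1PR4 and S1PR5, receptors best known from lymphocytes and from oligodendrocytes and natural killer cells, had changes of 0.06 and -0.07.

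Of the 6 prostanoid receptor genes, none had an unadjusted p under 0.05 and their changes ran from -0.19 to 0.10. PTGIR, the Gs-coupled prostacyclin receptor that inhibits platelets, had 6.17 and 5.98 with SSRP1 siRNA, against 6.02 and 6.34 with control siRNA. The groups overlapped (change -0.10 ± 0.14, SE). PTGDR2, a Gi-coupled prostaglandin D2 receptor of eosinophils and T helper cells, was lower on both SSRP1 siRNA arrays, with 4.19 and 4.21, against 4.46 and 4.32 with control siRNA (change -0.19 ± 0.11, SE, adjusted p = 0.540). PTGDR, PTGER3, PTGER4 and PTGFR had mean values between 2.27 and 3.20 and changes between -0.13 and 0.10.

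Receptors for fatty and hydroxycarboxylic acids gave no unadjusted p under 0.05. FFAR3, a Gi-coupled receptor for short-chain fatty acids found on sympathetic neurons in mice, had 5.59 and 5.39 with SSRP1 siRNA, against 5.50 and 5.53 with control siRNA (change -0.02 ± 0.11, SE). HCAR3 had 3.85 and 4.15 with SSRP1 siRNA, against 3.95 and 3.94 with control siRNA. The HCAR2 and HCAR3 genes are near-identical copies in sequence, so their signals on an array cannot be assigned with certainty. FFAR2, a second receptor for short-chain fatty acids, had the widest SE of the 48 genes, 0.26, on a change of 0.39. Its groups overlapped, as did those of FFAR1, FFAR4, HCAR1 and HCAR2, with changes of 0.04, 0.02, 0.26 and -0.10.

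Among the adenosine receptors, ADORA1 was higher and both A2 receptors had changes near 0. ADORA1 (gene ID 134, probe set 16676130), which couples to Gi and quiets neurons, had 4.47 and 4.76 with SSRP1 siRNA, against 4.17 and 3.94 with control siRNA. Both SSRP1 siRNA arrays lay above both control siRNA arrays. The log2 change was 0.56 ± 0.15 (SE), or 147% of the control value (95% interval 115 to 189%), with an unadjusted p of 0.00915 and a limma adjusted p of 0.254. ADORA2B, a Gs-coupled receptor of low affinity, had 5.81 and 5.76 with SSRP1 siRNA, against 5.74 and 5.79 with control siRNA, a change of 0.02 ± 0.10 (SE). ADORA2A, the Gs-coupled receptor blocked by caffeine in the striatum, had 4.48 and 4.63 with SSRP1 siRNA, against 4.56 and 4.55 with control siRNA. The difference between the ADORA1 change and those of the A2 receptors was not tested.

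The adrenergic and dopamine receptors held the only 2 members in the top 25% of all genes by value, and neither differed between the groups beyond its spread. ADRA2C, a Gi-coupled receptor that limits noradrenaline release from nerve endings, had 7.29 and 7.59 with SSRP1 siRNA, against 7.40 and 7.34 with control siRNA (change 0.07 ± 0.13, SE, adjusted p = 0.882). DRD2, the Gi-coupled dopamine receptor that antipsychotic drugs block, had 7.23 and 6.81 with SSRP1 siRNA, against 7.18 and 6.85 with control siRNA (change 0.01 ± 0.19, SE, adjusted p = 0.993). In both groups replicate 1 of DRD2 was the higher array.

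ADRB1 (gene ID 153, probe set 16709453), the Gs-coupled beta receptor that raises heart rate, had 4.75 and 4.81 with SSRP1 siRNA, against 5.08 and 5.04 with control siRNA. The groups did not overlap and the arrays within each lay close together. The log2 change was -0.28 ± 0.10 (SE), or 82.2% of the control value (95% interval 69.4 to 97.4%), with an unadjusted p of 0.0305 and a limma adjusted p of 0.354. ADRA2B was lower on both SSRP1 siRNA arrays, with 3.16 and 3.24, against 3.35 and 3.55 with control siRNA (change -0.25 ± 0.11, SE, adjusted p = 0.443). The Gq-coupled ADRA1A, ADRA1B and ADRA1D, which contract smooth muscle, and ADRB3, the beta receptor of fat, had overlapping groups, with changes between -0.16 and 0.14. The dopamine receptor genes DRD1, DRD3 and DRD5 also had overlapping groups, and DRD4 was higher on both SSRP1 siRNA arrays by 0.15 (adjusted p = 0.641). The 2 amine receptor genes left out of the group differed more: ADRA2A had 7.80 and 7.67 with SSRP1 siRNA, against 5.85 and 5.13 with control siRNA (adjusted p = 0.0583). HRH3 had 6.30 and 6.40 with SSRP1 siRNA, against 7.57 and 7.41 with control siRNA (adjusted p = 0.0538).

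All 3 histamine receptor members had changes above 0 and none passed the test. HRH1, the Gq-coupled target of antihistamines, had 4.22 and 4.09 with SSRP1 siRNA, against 4.09 and 4.18 with control siRNA, and the groups overlapped. HRH2, the receptor of gastric acid secretion, had a change of 0.21, and HRH4, a receptor of blood cells, one of 0.19 from dim values. Of the 6 trace amine receptors, most of which serve smell, 5 lay in the bottom 25% of all genes. The exception was TAAR5, a receptor for trimethylamine, with 4.10 and 4.40 with SSRP1 siRNA, against 3.90 and 4.41 with control siRNA. TAAR6 was the 1 trace amine receptor whose groups did not overlap (change 0.30 ± 0.14, SE, adjusted p = 0.469), and TAAR1, TAAR2, TAAR8 and TAAR9 had changes of 0.13, -0.03, -0.145 and 0.05.

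**Figure D3:**
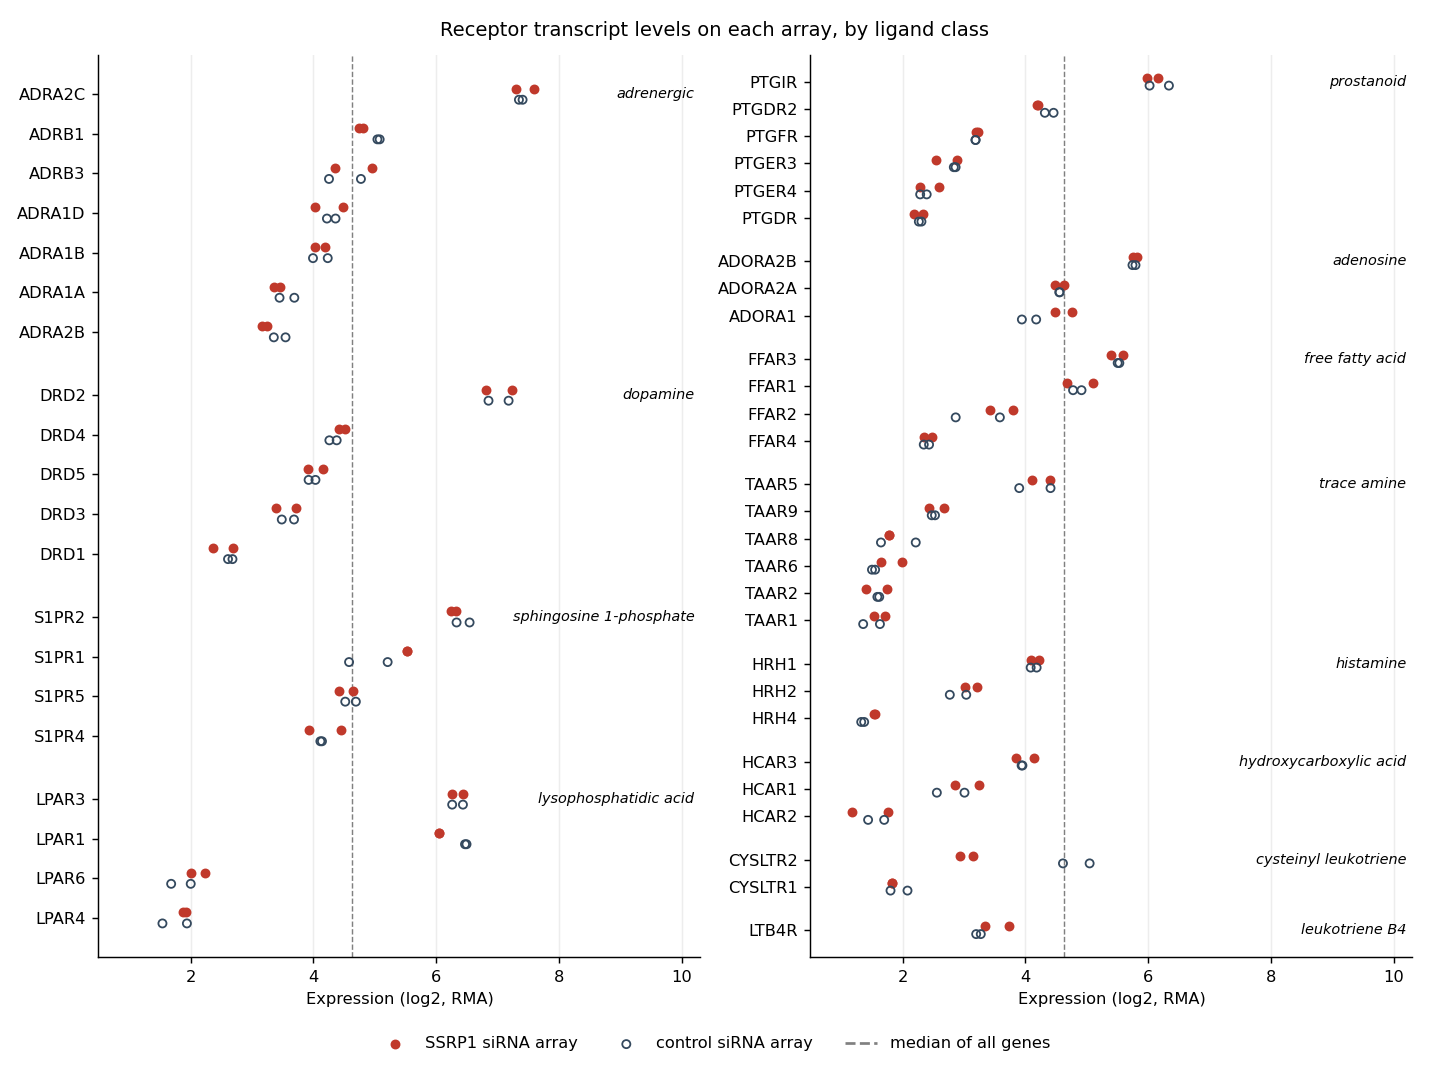
Log2 expression of the 48 receptor genes on each array by ligand class, filled red for SSRP1 siRNA and open for control siRNA, with the median of all 14812 genes dashed (4.64). Most receptor genes lie left of that line, and CYSLTR2 shows the clearest separation of red from open points.

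Seen over all 48 genes, the changes were small and in both directions. ADRA2A and HRH3, with changes of 2.25 and -1.14, were left out of the group and enter none of the counts by family, level or coupling. The median log2 change was 0.02, against -0.01 over all genes, and the median size of the change was 0.11, against 0.12. Of the members 27 had a change above 0 (56.2%, against 48.3% of all genes). A change under 0.25 in size was seen for 37 of the 48 members and for 11873 of all 14812 genes. The groups did not overlap for 14 members, 8 higher and 6 lower, which is 29.2%, against 44.3% of all genes (21.8% higher and 22.5% lower). Values were modest: 11 members lay at or above the median of all genes, 2 in the top 25% and 17 in the bottom 25%, where a value can reflect background as well as RNA. Values of different probe sets depend on their probes, so the order of 2 receptors by value is not an order of transcript amounts.

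**Figure D4:**
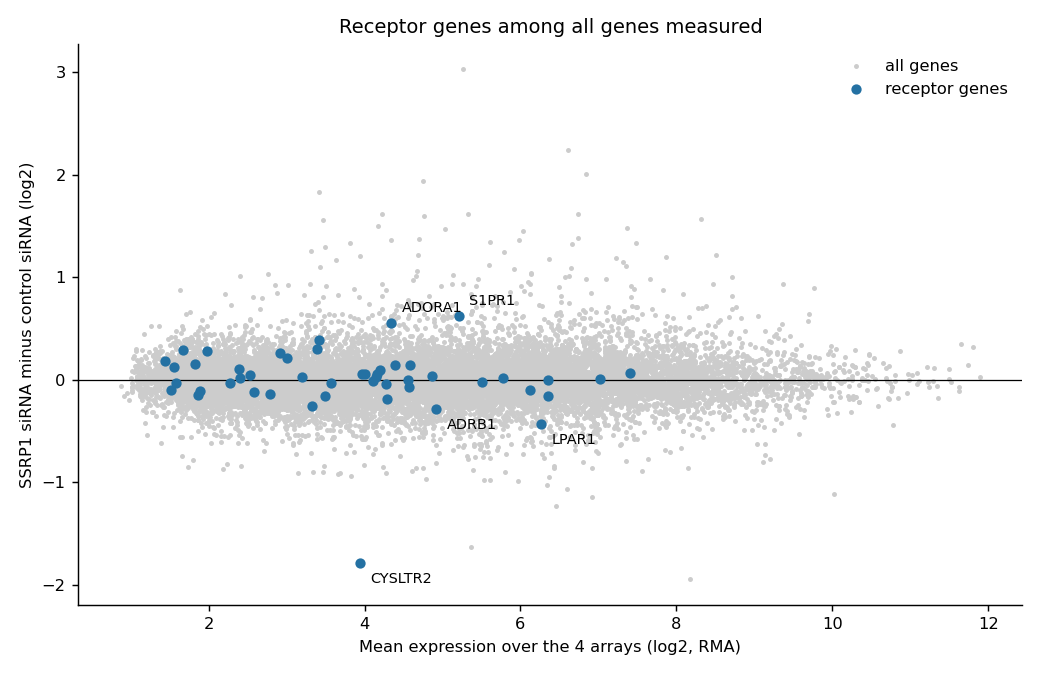
Log2 change, SSRP1 siRNA minus control siRNA, against mean log2 expression for the 48 receptor genes (blue) over all 14812 genes (grey). CYSLTR2 at -1.78 is the receptor gene outside the main cloud, and the labelled genes are the 5 with an unadjusted p under 0.05.

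By the G protein that each receptor is known to use mainly, the Gi group held both members that were higher at an unadjusted p under 0.05, ADORA1 and S1PR1. That was 2 of 16 Gi-coupled genes, with 10 of the 16 above 0 and a median of 0.06. Of 11 Gs-coupled genes ADRB1 was lower at that threshold, with 6 above 0 and a median of 0.02. Of 9 Gq-coupled genes CYSLTR2 was lower, with 4 above 0 and a median of -0.01. The 7 genes that couple to several G proteins included LPAR1, which was lower, with 4 above 0 and a median of 0.00105. The other 5 members, all trace amine receptors, were assigned no coupling. Among all genes, 6.56% were higher and 6.03% lower at that threshold. These counts are too small to set one coupling group against another, and no such test was made.

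**Figure D5:**
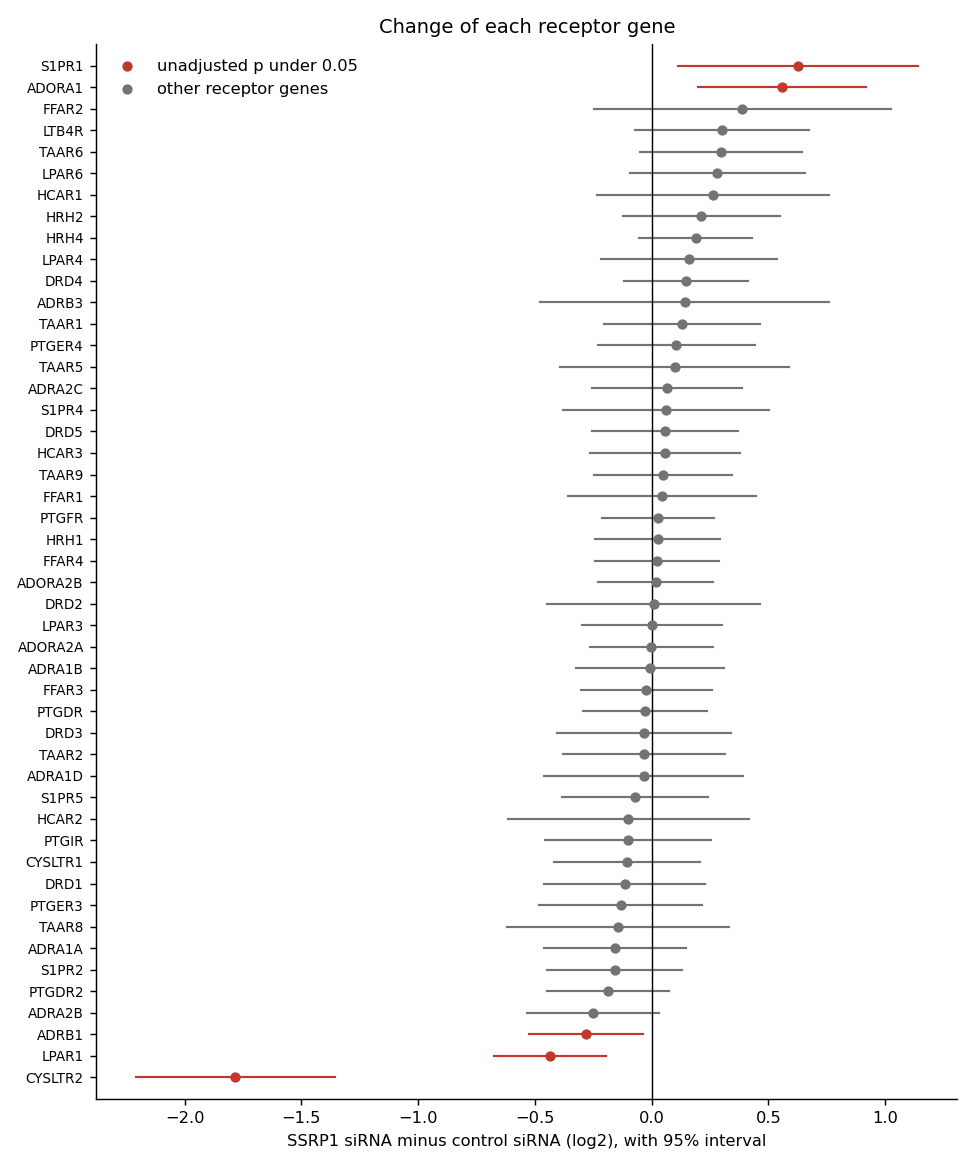
Log2 change of each of the 48 receptor genes, SSRP1 siRNA minus control siRNA, with its 95% interval from limma, sorted from highest to lowest. The 5 genes in red have an unadjusted p under 0.05, from S1PR1 at 0.63 down to CYSLTR2 at -1.78, and the intervals of the other 43 cross 0.

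Genes that make, move or remove the ligands were described next, and none passed the test over all genes. Of 26 amine and acetylcholine genes 13 were measured, with 9 above 0 and a median of 0.07. DBH, which turns dopamine into noradrenaline, had 8.83 and 8.80 with SSRP1 siRNA, against 9.67 and 9.50 with control siRNA (change -0.77 ± 0.11, SE, adjusted p = 0.111). TH, the rate-limiting enzyme of catecholamine synthesis, had 6.33 and 6.36 with SSRP1 siRNA, against 6.79 and 6.59 with control siRNA (change -0.34, adjusted p = 0.338). DDC, which makes dopamine from DOPA, was the opposite, with 9.64 and 9.70 with SSRP1 siRNA, against 9.24 on both control siRNA arrays (change 0.43, adjusted p = 0.214). TPH2, the neuronal enzyme of serotonin synthesis, was dim, with a change of 0.27. So 3 of 13 had an unadjusted p under 0.05, 1 higher and 2 lower, against 12.6% of all genes.

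Of 36 lipid mediator genes 27 were measured, with 8 above 0 and 19 below, where 48.3% of all genes were above 0, and a median of -0.09. PTGR1, an enzyme that inactivates leukotriene B4 and prostaglandins, had a change of -0.72 (adjusted p = 0.140). SGPP2, a phosphatase that removes sphingosine 1-phosphate, had 4.95 and 4.94 with SSRP1 siRNA, against 5.93 and 5.49 with control siRNA (change -0.77 ± 0.16, SE, adjusted p = 0.192). PLPP3, which degrades lysophosphatidic acid outside the cell, had 2.10 and 2.15 with SSRP1 siRNA, against 2.47 and 2.85 with control siRNA (change -0.53, adjusted p = 0.279). PTGIS, the prostacyclin synthase, had a change of -0.29. With SPNS2, the exporter of sphingosine 1-phosphate, at 0.29, 5 genes had an unadjusted p under 0.05, 4 lower and 1 higher, against 6.03% and 6.56% of all genes. SPNS2 was named after its value was seen. The count was lower with any 1 array left out, which leaves 1 array in a group. The 4 lower genes were among 13 of the 27 with both SSRP1 siRNA arrays below both control siRNA arrays, against 22.5% of all genes. Both SSRP1 siRNA arrays were above for 2 of the 27, against 21.8% of all genes. A low p favours such a gap, so for the 4 genes it adds no separate support.

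Of 19 purine genes 11 were measured, with 3 above 0 and a median of -0.07. ENPP1, which cleaves extracellular ATP, was higher by 0.61 from dim values (adjusted p = 0.262), and PANX1, a channel that releases ATP, had 7.24 and 7.01 with SSRP1 siRNA, against 6.77 on both control siRNA arrays (change 0.35, adjusted p = 0.347). ADA, which deaminates adenosine, and ENTPD3, an ectonucleotidase, had changes of -0.23 and -0.26. Of 46 G protein relay genes 20 were measured, with 10 above 0 and a median of 0.01. RGS16, which speeds the shut-off of Gi and Gq, had 9.06 and 9.18 with SSRP1 siRNA, against 8.21 and 8.59 with control siRNA (change 0.72 ± 0.15, SE, adjusted p = 0.195). RGS3, of the same family, was higher by 0.43 and RGS10 lower by 0.49 (adjusted p = 0.295 and 0.266). GRK4, a kinase that desensitises receptors, had a change of -0.35. These 3 RGS genes were the relay genes of 20 with an unadjusted p under 0.05, against 12.6% of all genes. The count rose without SSRP1 siRNA replicate 2 and fell without control siRNA replicate 2, fits that leave 1 array in a group.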

How the data were processed

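Per the submitters' processing notes the authors made the deposited log2 expression values with RMA, which as usually run corrects background, quantile normalizes and summarises probes. Its software version is not given in the sources used here, and the log2 scale was read from the values (0.502 to 12.8). Of 46255 probe sets 15835 had 1 gene symbol in the platform annotation, covering 14812 genes. Genes with more than 1 probe set were represented by the brightest, judged by its mean on all 4 arrays. limma 3.58.1 in R 4.3.3 (lmFit and eBayes, no trend, not robust, no filter, no block) compared SSRP1 siRNA with control siRNA on all 4 arrays, with 2 residual and 3.79 prior degrees of freedom. P-values are two-sided, with Benjamini-Hochberg adjustment over all genes, and a gene passed at an adjusted p under 0.05. The test was tried on simulated data with independent arrays, drawn from limma's own variance model. That trial does not show how the test behaves on these 4 arrays. No detection values were used, and the number of arrays limits precision.

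Values on every array are given for CYSLTR2 and CYSLTR1, members at an unadjusted p under 0.05, members in the top 25% by level and the highest member of each ligand class; other members with values were chosen as examples after theirs were seen. Of each supply or relay list the 4 members with the smallest p were named. Members, lists and the marker genes were chosen with earlier results of these data known. G protein coupling was assigned from general knowledge. Alternatives are the replicate block, variance trend, robust variances, quantile normalization, median centring, mean of probe sets, genes at or above the median level, all probe sets and each array left out.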

Additional observations from a re-analysis of the deposited data

How the results depend on the processing

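With 2 arrays a group, each change rests on few values, and dim genes can reflect background. The SSRP1 change of -1.95 had an adjusted p of 0.0569 with the replicate block, 0.0512 with robust variances and 0.144 over all probe sets, and it ran from -2.17 to -1.72 with an array left out (adjusted p 0.241 to 0.599). The CYSLTR2 change was -1.78 with a variance trend (adjusted p = 0.00744), -1.77 after quantile normalization (0.0334) and -1.76 after median centring (0.0445), the 3 alternatives under which 1 receptor gene, CYSLTR2, passed limma's test. With any 1 array left out the CYSLTR2 change ran from -2.001 to -1.57, and 0 receptor genes passed on 1 residual degree of freedom. Robust variances gave CYSLTR2 an adjusted p of 0.0564 and all probe sets 0.174. The replicate block gave it 0.0792. That fit gave 7 receptor genes an unadjusted limma p under 0.05 (14.6%, against 13.9% of all genes). The main fit gave 5 (10.4%, against 12.6% of all genes). The labels share replicate numbers without saying what they mark, and deviations of same-numbered arrays had a correlation of 0.114 across genes. The main fit used no block, a choice that does not show same-numbered arrays to be unpaired.

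With the test limited to genes no lower than the median level, 11 receptor genes were tested, CYSLTR2 was not among them, and 3 had an unadjusted p under 0.05 (27.3%, against 20.8% of the 7406 genes tested), as did 1 purine gene and 3 lipid mediator genes. With 1 array left out the counts of receptor, purine, lipid mediator, amine and relay genes at that threshold all shifted. Each of these fits leaves 1 array in a group, so their counts are not set against a share over all genes. CYSLTR2 and LPAR1 kept an unadjusted p under 0.05 in each of these 4 fits. ADORA1 lost it without either replicate 2, and S1PR1 and ADRB1 lost it in 3 and 4 of the 4. Small changes turned sign. After quantile normalization DRD2 was at -0.00305 and LPAR3 at -0.0261. Leaving out an array gave ranges of -0.246 to 0.0305 for CYSLTR1, -0.260 to 0.0544 for PTGIR, -0.0803 to 0.211 for ADRA2C, -0.157 to 0.353 for TAAR5, -0.0919 to 0.203 for HCAR3, -0.0388 to 0.0902 for HRH1, -0.124 to 0.0789 for FFAR3, -0.0103 to 0.0445 for ADORA2B, -0.205 to 0.221 for DRD2 and -0.0888 to 0.0909 for LPAR3. The genes past the test among all genes numbered 14, against 215 with a variance trend, 179 at or above the median level, 28 after quantile normalization, 23 after median centring, 9 with robust variances, 6 with the replicate block and 0 over all probe sets or with an array left out. The causes were not tested.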
